A study of Mus musculus with 12 samples.

Results

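The Cyp2c genes encode cytochrome P450 enzymes of the endoplasmic reticulum that are made mainly in hepatocytes. They oxidize drugs and steroids, turn arachidonic acid into epoxides and hydroxy acids, and, in the case of Cyp2c70, hydroxylate bile acids. Their expression is set by the nuclear receptors CAR and PXR, by hepatocyte factors such as HNF4α, and for some members by the sex-specific rhythm of growth hormone. Here, 10 of the 16 Cyp2c symbols in the deposited liver table of 24537 genes were described, namely Cyp2c29, Cyp2c37, Cyp2c38, Cyp2c39, Cyp2c40, Cyp2c50, Cyp2c54, Cyp2c67, Cyp2c69 and Cyp2c70. They were taken by gene symbol, and the list was chosen on the FPKM differences between caloric restriction (CR) and control (Con) mice of these same livers, so p-values on CR against Con describe these mice and are no independent test of the choice.

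Liver total RNA came from male C57Bl/6J mice that entered the experiment at 6 weeks of age and were kept in single cages. Con mice ate ad libitum, and CR mice received 30% less food than Con mice ate. CR mice were given a fortified form of the chow, once daily at a fixed hour. Mice were labelled with heavy water before their livers were taken. Amount of food, chow and feeding time differ together between the diets, and they cannot be told apart. Livers were taken at day 25 or day 30, on either side of a slowdown of hepatic protein synthesis that the study set out to examine, with 3 Con and 3 CR mice per day and 12 libraries in all. The labels give no genotype other than the strain, and the libraries were read as 100 bp pairs on 1 lane. The 3 Con samples of day 30 have numbered titles but share 1 description, so their table columns could not be linked to a title and are numbered here in column order. Recovered depth ran from 15748710 to 23345573 reads per library. All 6 hepatocyte markers on a list of general knowledge were above 0, at a summed FPKM of 36500 to 64600, and the 5 lymphocyte markers summed to 0.583 to 2.17. Since whole liver was sampled, fewer cells of a type and less RNA per cell cannot be told apart.

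Near-identical members may share reads, and this limits the values of Cyp2c40 and Cyp2c69 above all. Between the transcripts of Cyp2c40 and Cyp2c69, 97.7% of aligned bases were the same, and Cyp2c40 matched Cyp2c67 at 97.6% and Cyp2c68, which is not among the 10, at 98.0%. Of all 100-base stretches of the Cyp2c40 transcript, 44.1% occurred unchanged in another gene's transcript and 89.5% lay within 2 mismatches of another Cyp2c transcript. The shares were 36.3% and 70.3% for Cyp2c69, and 23.7% and 77.2% for Cyp2c67. Cyp2c29 and Cyp2c70 had no such stretch in either class among these transcripts. Cyp2c38 and Cyp2c39 had no unchanged stretch, with 8.34% and 13.4% within 2 mismatches. The values were 4.7% and 37.9% for Cyp2c37, 7.59% and 26.3% for Cyp2c54, and 10.4% and 41.2% for Cyp2c50. These shares come from GENCODE M21 transcripts, and copies outside transcripts were not looked for.

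**Figure D1:**
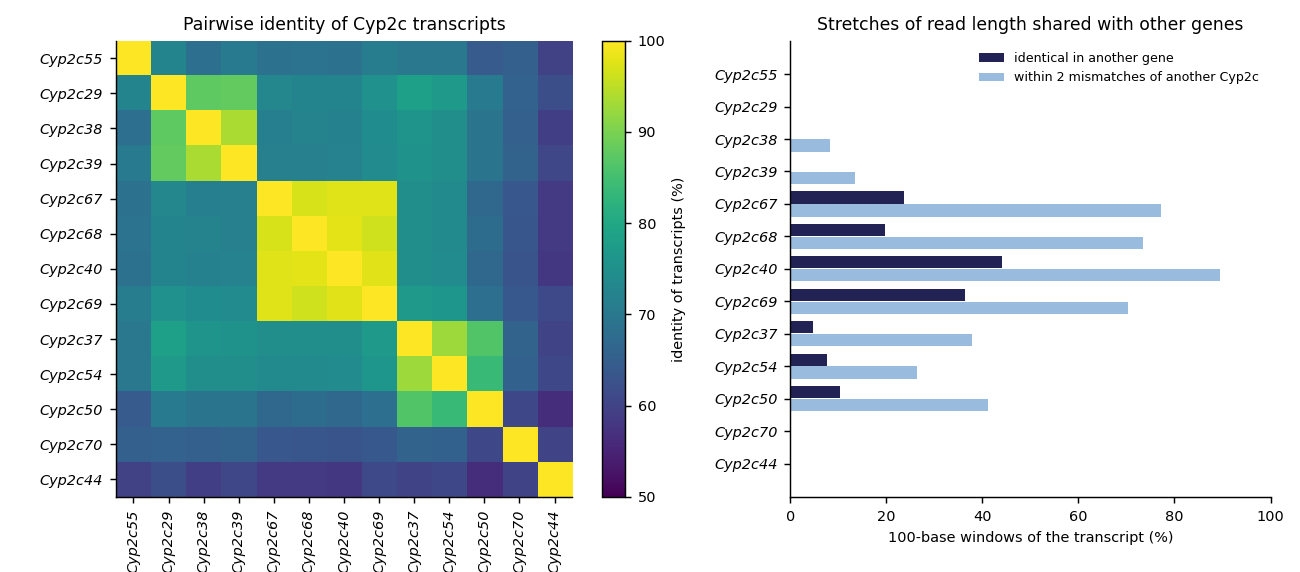
Left, identity (%) between the transcripts of the tested Cyp2c genes in chromosomal order, with lighter colour for higher identity. Right, share (%) of 100-base stretches of each transcript that occur unchanged in another gene (dark bars) or lie within 2 mismatches of another Cyp2c transcript (light bars). Cyp2c67, Cyp2c68, Cyp2c40 and Cyp2c69 form a bright block, and Cyp2c40 has the longest light bar at 89.5%.

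To show how far a single read can separate these genes, a coding stretch of read length is printed. Among those searched, it is where Cyp2c40 differed most from Cyp2c69, Cyp2c67 and Cyp2c68 together. The search covered 669 stretches of Cyp2c40 inside a single exon and left out those with over 20 differences from any of these genes. Stretches across exon borders and read pairs were not compared. The printed stretch lies in exon 2 of each gene on the minus strand of chromosome 19 (mm10). Capitals mark the bases that differ from Cyp2c40, which number 5 in Cyp2c69, 8 in Cyp2c67 and 6 in Cyp2c68 out of 100.
Cyp2c40, chr19:39807523-39807622: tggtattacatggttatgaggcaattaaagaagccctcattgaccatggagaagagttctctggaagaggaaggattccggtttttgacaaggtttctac
Cyp2c69, chr19:39881454-39881553: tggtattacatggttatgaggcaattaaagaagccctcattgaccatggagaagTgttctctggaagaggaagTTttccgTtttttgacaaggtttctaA
Cyp2c67, chr19:39643600-39643699: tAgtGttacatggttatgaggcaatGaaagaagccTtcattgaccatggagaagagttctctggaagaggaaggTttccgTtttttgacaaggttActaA
Cyp2c68, chr19:39739384-39739483: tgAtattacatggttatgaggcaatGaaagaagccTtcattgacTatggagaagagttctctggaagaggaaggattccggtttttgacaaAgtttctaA

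The members lie in 1 cluster on chromosome 19 (mm10), between the start of Cyp2c29 at 39287085 and the end of Cyp2c70 at 40187286. Cyp2c67 (39608859 to 39649042), Cyp2c68, Cyp2c40 (39767073 to 39812814) and Cyp2c69 (39842660 to 39886769) follow each other on the minus strand. The members with the largest CR effect at day 25, Cyp2c40 and Cyp2c69, are neighbours. Cyp2c39 (39510822 to 39568529) and Cyp2c38 (39389556 to 39463075), whose transcripts are 93.6% identical, are also neighbours but lie on opposite strands.

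**Figure D2:**
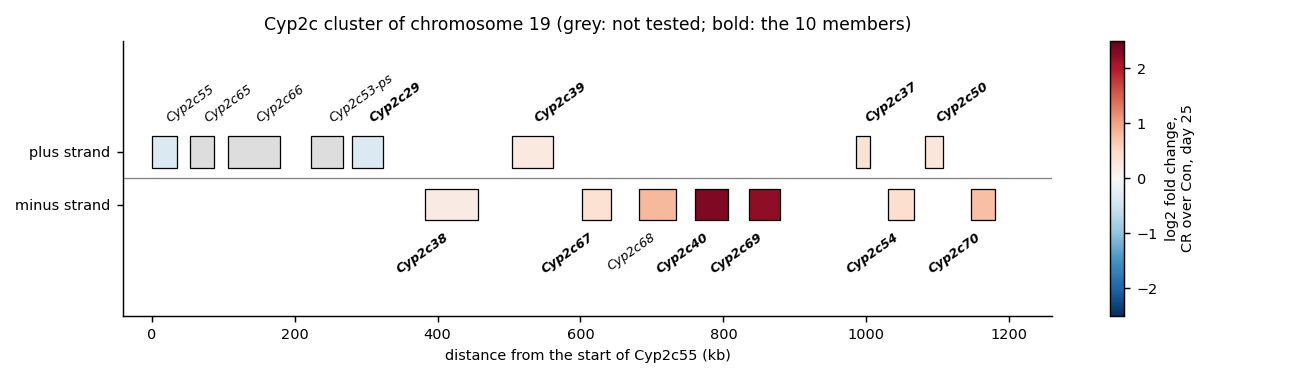
Map of the Cyp2c cluster by distance from the start of Cyp2c55 (kb), with plus-strand genes above the line and minus-strand genes below. Boxes are coloured by the log2 fold change of CR over Con at day 25, grey boxes were not tested, and the darkest red boxes are Cyp2c40 (2.34) and Cyp2c69 (2.22).

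A motif shared by these promoters is also shown, because Cyp2c40 and Cyp2c69 moved together. In RefSeq promoters of 300 bases (250 before to 50 after the start, GRCm38.p6), 9 of the 10 members had an entry at the start of the counted transcript, all but Cyp2c54. The core of an HNF4 site, CAAAGTCC, was found on either strand in 4 of these 9 (Cyp2c67, Cyp2c40, Cyp2c69 and Cyp2c70) and in 1.42% of all 32851 promoters. The promoters of Cyp2c67, Cyp2c40 and Cyp2c69 were 92.8 to 98.9% identical over aligned bases, so their matches are not independent of one another. The stretches below run 5′ to 3′ along the minus strand, end before each annotated start, and have the core in capitals.
Cyp2c40, chr19:39812815-39812919: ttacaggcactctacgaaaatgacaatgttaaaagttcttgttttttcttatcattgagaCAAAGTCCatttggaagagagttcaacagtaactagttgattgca
Cyp2c69, chr19:39886800-39886904: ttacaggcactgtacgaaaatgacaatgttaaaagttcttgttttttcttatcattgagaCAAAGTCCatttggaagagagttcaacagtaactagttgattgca
Cyp2c67, chr19:39649123-39649227: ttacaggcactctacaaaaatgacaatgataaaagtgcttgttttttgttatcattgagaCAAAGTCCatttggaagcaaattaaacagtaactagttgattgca
Cyp2c68, chr19:39741134-39741238: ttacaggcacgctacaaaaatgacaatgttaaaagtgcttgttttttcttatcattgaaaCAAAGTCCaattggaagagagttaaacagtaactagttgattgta
Cyp2c70, chr19:40187306-40187410: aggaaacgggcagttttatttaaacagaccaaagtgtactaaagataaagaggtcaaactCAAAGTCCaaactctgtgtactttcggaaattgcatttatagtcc
Over these 105 bases, Cyp2c69 differed from Cyp2c40 at 1 base, Cyp2c68 at 7 and Cyp2c67 at 8, whereas Cyp2c70 differed at 75. The letters of a TATA box (TATAAA) were present in 7 of the 9 member promoters and 13.6% of all promoters. They lay after the annotated start in Cyp2c40 and Cyp2c69, across it in Cyp2c39, and on the opposite strand in Cyp2c70. The nuclear receptor half-site AGGTCA was found in Cyp2c29 and Cyp2c70 (16.3% of all promoters) and the FOXA core TGTTTAC in Cyp2c38 and Cyp2c39 (3.65%). The STAT5 palindrome TTCNNNGAA and the C/EBP palindrome TTGCGCAA were in 0 of the 9 windows, against 8.3% and 0.183% of all promoters. Both strands were searched and the motifs named here did not overlap one another. Cyp2c67, whose CR effect did not pass the threshold at either day, had the same core as Cyp2c40. The part of these motifs in the CR effects was not tested.

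Levels per transcript length spanned a wide range. Cyp2c29, a CAR-inducible epoxygenase, was the most abundant member with 593 to 1360 FPKM, which is exon reads scaled by transcript length and library depth. Cyp2c50 followed at 280 to 466 FPKM, and then Cyp2c37 (123 to 237 FPKM) and Cyp2c54 (119 to 222 FPKM), which overlapped each other across libraries. Cyp2c70 ranged from 32.9 to 172 FPKM. Cyp2c67 (22.4 to 58.7 FPKM) and Cyp2c38 (12.8 to 34.3 FPKM) were lower and overlapped. Cyp2c40 (0.199 to 13.2 FPKM), Cyp2c69 (0.278 to 13.2 FPKM) and Cyp2c39 (0.889 to 5.29 FPKM) were the lowest, and their order depended on the group. All 10 members passed the filter of at least 1 FPKM in at least 3 libraries. None depended on the CR libraries for this, since even Cyp2c40 and Cyp2c69 reached 1 FPKM in 4 of the 6 Con libraries.

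**Figure D3:**
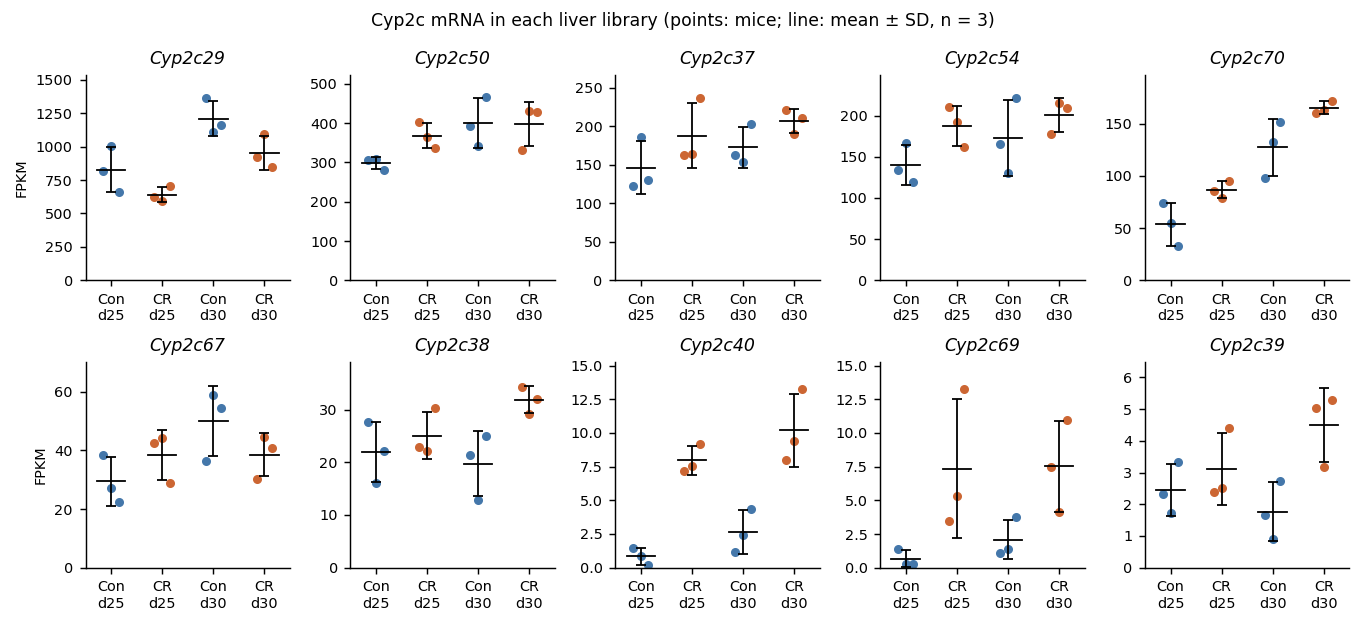
FPKM of each member in the 12 libraries, with 1 panel per gene in order of mean level and an axis from 0. Points are mice (blue for Con, orange for CR), lines and bars are the mean ± SD of 3 mice, and the CR points of Cyp2c40, Cyp2c69 and Cyp2c70 lie above the Con points at both days.

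CR against Con at day 25 asks how the diet groups differed before the slowdown. Cyp2c40, which makes hydroxy acids from arachidonic acid, was the member with the largest difference. In Con mice it was at 1.49, 0.851 and 0.199 FPKM, from 6 to 49 reads per library, and in CR mice at 7.17, 7.56 and 9.2 FPKM, from 213 to 331 reads. Every CR library lay above every Con library by a wide margin. The log2 fold change on log2(FPKM + 1) was 2.34 (SE 0.311, 95% interval 1.66 to 3.01, limma, Benjamini-Hochberg adjusted p = 0.00135 over 10593 genes), while the means themselves stood at a ratio of 9.43. Cyp2c69 was at 1.42, 0.278 and 0.304 FPKM in Con mice and at 3.49, 5.34 and 13.2 FPKM in CR mice. Again no CR library reached down to the Con range, although the CR mice spread widely. Its log2 fold change was 2.22 (SE 0.444, limma adjusted p = 0.01).

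These were the 2 members that rose past both thresholds at day 25 (limma adjusted p below 0.1, and a log2 fold change of 1 or more in either direction), where 0.84% of all tested genes rose. By adjusted p alone 3 members were higher, with Cyp2c70, against 5.6% of all tested genes. The list was chosen with this contrast known, so nothing is read from the count. Of the 10 members, 9 had a positive log2 fold change, and the median was 0.37 against -0.04 over all tested genes.

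Cyp2c70, the enzyme that makes the muricholic acids of mouse bile, was at 73.8, 54.5 and 32.9 FPKM in Con mice and at 85.5, 79.2 and 95.5 FPKM in CR mice at day 25. The groups did not overlap, as for Cyp2c40, Cyp2c69 and Cyp2c50 among the members and 10.2% of all tested genes in the upward direction. Its log2 fold change of 0.75 (SE 0.234) had an adjusted p of 0.0667 in limma but fell short of the minimum fold. Without Con mouse 1, the highest of the Con mice, it was 1.01 with an adjusted p of 0.022 and passed both. Cyp2c50, an epoxygenase of arachidonic and linoleic acid, was at 307, 308 and 280 FPKM in Con mice and 402, 365 and 338 FPKM in CR mice. The sets were separate but the difference of 0.30 did not pass the test (SE 0.14, limma adjusted p = 0.205).

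Cyp2c29 pointed the other way. It was at 817, 1001 and 663 FPKM in Con mice and 625, 593 and 702 FPKM in CR mice at day 25, with 1 CR mouse inside the Con range. The log2 fold change was -0.35 (SE 0.157), and the adjusted p of 0.187 in limma missed the threshold. The others had log2 fold changes of 0.20 for Cyp2c38, 0.24 for Cyp2c39, 0.36 for Cyp2c37, 0.39 for Cyp2c67 and 0.43 for Cyp2c54. Their adjusted p in limma lay between 0.175 (Cyp2c54) and 0.631 (Cyp2c38), and Con and CR mice overlapped for each of them.

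Markers of other cells and of liver zones differed between the same groups at day 25. The summed FPKM of 8 pericentral hepatocyte markers was 5250 to 5590 in Con and 6720 to 7920 in CR mice, with an adjusted p under 0.1 for 3 that were higher and 1 that was lower, where all tested genes gave 5.6% and 9.34%. The 5 Kupffer cell markers summed to 32.7 to 54.4 FPKM in Con and 20.6 to 25.7 FPKM in CR mice, and 3 were lower by the same criterion. The 5 stellate cell markers summed to 51.6 to 60.4 FPKM in Con and 64.5 to 65.8 FPKM in CR mice, and the 5 lymphocyte markers to 1.24 to 1.29 and 0.583 to 1.13 FPKM. Cyp2e1 made most of the pericentral sum, at 4500 to 4750 FPKM in Con and 5730 to 6900 FPKM in CR mice. Dcn made most of the stellate cell sum, at 43.5 to 50.2 and 51.9 to 53 FPKM (limma adjusted p = 0.327). None of the listed markers was at 0 in all libraries. The part of these in the Cyp2c differences was not tested.

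At day 30, Cyp2c40 and Cyp2c69 were again higher in CR mice, and Cyp2c39, an enzyme that breaks down retinoic acid, joined them. Cyp2c40 was at 1.15, 2.44 and 4.34 FPKM in Con mice and at 7.97, 9.36 and 13.2 FPKM in CR mice. The groups stayed apart, but the highest Con mouse was closer to the CR mice than at day 25. The log2 fold change was 1.69 (SE 0.311, 95% interval 1.02 to 2.37, limma adjusted p = 0.00385) and the ratio of means 3.86. Cyp2c69 was at 1.05, 1.41 and 3.73 FPKM in Con mice and 7.46, 4.15 and 10.9 FPKM in CR mice, so the lowest CR mouse was just above the highest Con mouse. Its log2 fold change was 1.49 (SE 0.444, limma adjusted p = 0.0386). That call was lost without Con mouse 1 (1.25, adjusted p = 0.124), Con mouse 2 (1.37, 0.11), CR mouse 1 (1.45, 0.112) or CR mouse 3 (1.20, 0.122), all fitted with limma.

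Cyp2c39 was at 1.67, 0.889 and 2.74 FPKM in Con mice (35 to 114 reads) and at 5.04, 3.17 and 5.29 FPKM in CR mice (114 to 228 reads) at day 30. All CR libraries were above all Con libraries, as in 12.1% of tested genes. Its log2 fold change of 1.02 (SE 0.265, limma adjusted p = 0.0215) stood just past the minimum fold, and fell below it without Con mouse 2 (0.78), CR mouse 1 (0.95) or CR mouse 3 (0.92). Cyp2c38, its closest relative among the members and an epoxygenase, was at 21.4, 12.8 and 24.9 FPKM in Con and 34.3, 29.2 and 32 FPKM in CR mice. These did not overlap either, with a log2 fold change of 0.71 (SE 0.228, limma adjusted p = 0.0515) that was under the minimum fold.

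Marker sums of several cells differed between the same groups at day 30. Those of the hepatocyte list were 36500 to 45500 FPKM in Con and 53600 to 64600 FPKM in CR mice, of 7 periportal markers 3610 to 4550 and 4870 to 6520 FPKM, of the endothelium 29 to 31.9 and 38 to 43.1 FPKM, and of stellate cells 48.8 to 59 and 68.9 to 79.4 FPKM. The pericentral (4380 to 5380 and 5080 to 6830 FPKM), Kupffer cell (28.5 to 42.2 and 26.6 to 36.7 FPKM) and cholangiocyte sums (10.2 to 14.1 and 12 to 14.8 FPKM) overlapped. Alb made most of the hepatocyte sum, at 25400 to 33000 FPKM in Con and 41000 to 51700 FPKM in CR mice. In the periportal list, Pck1 was at 1090 to 1210 and 1860 to 2730 FPKM. Log2 fold changes were positive for 5 of 6 hepatocyte and 5 of 7 periportal markers. By adjusted p alone in limma, 3 hepatocyte, 3 periportal, 2 endothelium and 3 stellate cell markers were higher and 0 lower. All tested genes gave 8.33% and 16.4%. The part of these lists in the Cyp2c differences was not tested.

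In all, 3 of the 10 members rose past both thresholds at day 30, where 0.925% of all tested genes rose, and 0 fell, against 1.28%. By adjusted p alone in limma 4 were higher, with Cyp2c38, against 8.33% of all tested genes. With a pseudocount of 5 in place of 1, none of the 3 kept the minimum fold, while each adjusted p in limma stayed under 0.1. Cyp2c40 fell just short of it at 0.998, and Cyp2c69 and Cyp2c39 were at 0.81 and 0.49. The median over the 10 members was 0.33 against -0.07 over all tested genes, and 7 were positive.

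Cyp2c70 at day 30 was at 98.2, 132 and 151 FPKM in Con mice and at 161, 163 and 172 FPKM in CR mice. The CR mice were above every Con mouse and close to one another, yet the log2 fold change of 0.40 (SE 0.234, limma adjusted p = 0.266) did not pass. Cyp2c29 was at 1360, 1109 and 1161 FPKM in Con mice and at 923, 1092 and 847 FPKM in CR mice, and every CR mouse was below every Con mouse, as in 24.3% of tested genes. Its log2 fold change of -0.35 (SE 0.157, limma adjusted p = 0.153) had the size seen at day 25 and did not pass either. For Cyp2c37 (0.27), Cyp2c54 (0.24), Cyp2c50 (-0.01) and Cyp2c67 (-0.35), the groups overlapped and the adjusted p in limma was between 0.328 and 0.972. Over both days, Cyp2c40, Cyp2c69 and Cyp2c70 were the members whose CR mice lay above all Con mice of the same day each time, as did 5.8% of all tested genes.

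**Figure D4:**
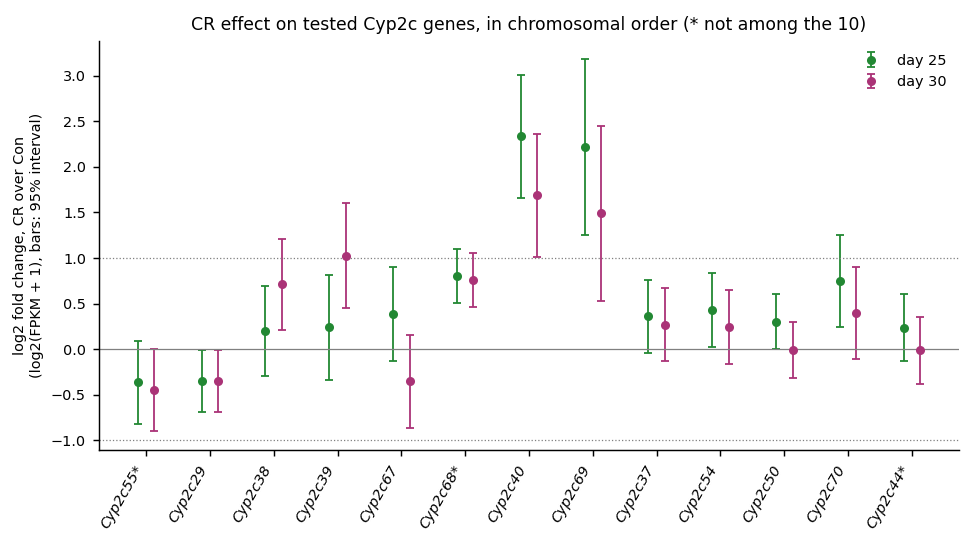
Log2 fold change of CR over Con on log2(FPKM + 1) for the 13 tested Cyp2c genes at day 25 (green) and day 30 (purple), with 95% intervals from limma. Dotted lines mark the minimum fold, an asterisk marks genes outside the 10, and Cyp2c40 and Cyp2c69 lie highest at both days while Cyp2c29 lies below 0.

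The effect of CR was then compared between days, since the study looked for a change between them. The interaction was not called for any of the 10 members, and 0.00944% of tested genes were called. In limma, 1 member had an unadjusted p under 0.05, against 366 of all 10593 tested genes. The member was Cyp2c67, with a difference of -0.74 (95% interval -1.47 to -0.01, limma adjusted p = 1). The CR effect on Cyp2c40 was lower by 0.65 at day 30, with an interval from -1.60 to 0.31, and that on Cyp2c69 by 0.73, with an interval from -2.09 to 0.64. For Cyp2c39 it was higher by 0.79, with an interval from -0.03 to 1.60. The intervals leave room for differences of over 1 log2 unit for these genes, so equal effects at both days were not shown.

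Between days within a diet, most members had higher values at day 30. In CR mice all 10 log2 fold changes of day 30 over day 25 were positive (median 0.23, all tested genes -0.01), and in Con mice 8 were (median 0.49, all tested genes 0.02). The CR comparison called 0 members and 0.142% of tested genes, with 2 members and 917 genes at an unadjusted p under 0.05 in limma. The Con comparison called 0 members and 0% of tested genes in limma, with 5 members and 765 genes at an unadjusted p under 0.05. Voom on the recovered reads also called 0 members in both.

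Cyp2c70 and Cyp2c29 were separate between days in both diets. For Cyp2c70 the lowest mouse of day 30 was above the highest of day 25 in Con mice (98.2 against 73.8 FPKM) and in CR mice (161 against 95.5 FPKM). Its log2 fold changes were 1.28 (SE 0.234, limma adjusted p = 0.235) in Con and 0.93 (adjusted p = 0.184) in CR mice. Without Con mouse 1 of day 25 the former was 1.54 with an adjusted p of 0.0315 in limma and passed both thresholds. Cyp2c29 was higher at day 30 by 0.56 in Con (limma adjusted p = 0.453) and 0.57 in CR mice (adjusted p = 0.242). Such separation upward was found in 7.23% of tested genes in Con and 6.32% in CR mice. Day of sampling and age differ together here, and they cannot be told apart.

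The shares of the members in their sum differed between diets, while the sum itself overlapped. The summed FPKM of the 10 members was 1520 ± 244 in Con and 1553 ± 72.8 in CR mice at day 25, and 2158 ± 189 and 2016 ± 148 at day 30 (mean ± SD, n = 3). Con and CR mice overlapped at both days, and the differences of mean log2 sums, CR minus Con, were 0.04 and -0.10. Cyp2c29 supplied 52.1 to 56.8% of the sum in Con and 40 to 43.4% in CR mice at day 25, and 50.6 to 60.7% and 43 to 50% at day 30. At both days every CR mouse had a smaller share of Cyp2c29 than every Con mouse. Without Cyp2c29 the sum was 693.2 ± 76.5 in Con and 912.4 ± 28.6 in CR mice at day 25, and 948.6 ± 161 and 1063 ± 76.7 at day 30. At day 25 the ranges without Cyp2c29 were separate (610.2 to 760.8 against 881.6 to 938.2 FPKM), and at day 30 they overlapped. Cyp2c40 and Cyp2c69 added at most 0.672% and 0.817% of the sum in any library, so their rise hardly bears on the total.

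Because reads may be divided between near-identical genes, Cyp2c67, Cyp2c68, Cyp2c40 and Cyp2c69 were also summed, a choice made after their values were seen. The sum was 79.62 ± 16 FPKM in Con and 139.8 ± 12.7 in CR mice at day 25, and 115.3 ± 12.7 and 159.1 ± 11 at day 30 (mean ± SD, n = 3). The CR range (128.8 to 153.6 FPKM) was above the Con range (66.03 to 97.27 FPKM) at day 25, as at day 30 (146.6 to 167.2 against 102.3 to 127.7 FPKM). Within the sum, Cyp2c40 and Cyp2c69 held 0.762 to 2.99% in Con and 8.28 to 14.6% in CR mice at day 25, and 2.15 to 6.32% and 8.08 to 14.8% at day 30. The share of these genes among their near-identical relatives was thus larger in every CR mouse than in every Con mouse of the same day.

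Cyp2c68 made most of that sum outside the 10. It was at 55.9, 47.1 and 43.1 FPKM in Con and 75.5, 79.9 and 102 FPKM in CR mice at day 25, and at 63.7, 53.4 and 65.1 FPKM against 101, 109 and 98.5 FPKM at day 30. The groups were separate at both days, as in 5.8% of tested genes in the upward direction. The log2 fold changes of 0.80 (SE 0.137, limma adjusted p = 0.00459) and 0.75 (adjusted p = 0.00351) were under the minimum fold. Cyp2c55 was higher at day 30 than at day 25 in CR mice (1.05, SE 0.209, limma adjusted p = 0.0886) and by 1.13 in Con mice (adjusted p = 0.235), and its CR effects were -0.36 and -0.45 (adjusted p = 0.305 and 0.161). Cyp2c44 had CR effects of 0.24 and -0.01 (limma adjusted p = 0.427 and 0.973). Cyp2c65, Cyp2c66 and the pseudogene Cyp2c53-ps were too low to test, at no more than 1, 0 and 23 reads in any library.

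P450 enzymes need electrons from partner proteins. Of 5 redox partners, 1 rose past both thresholds at each day, against 0.84% and 0.925% of all tested genes. The number that fell was 0, against 0.642% and 1.28%. By adjusted p alone in limma, 2 were higher and 0 lower at day 25, against 5.6% and 9.34% of all tested genes. At day 30, 2 were higher and 2 lower, against 8.33% and 16.4%. The gene past both thresholds was Por, the reductase that feeds electrons to microsomal P450 enzymes. It was at 179 to 345 FPKM in Con and 565 to 658 FPKM in CR mice at day 25. At day 30 it was at 148 to 191 and 504 to 559 FPKM. Its log2 fold changes were 1.14 (SE 0.205, limma adjusted p = 0.00608) and 1.65 (adjusted p = 0.000412). The medians of the 5 were 0.19 and -0.03.

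Of 14 receptors and factors of P450 expression, 0 passed both thresholds at either day in limma. Of all tested genes, 0.84% rose and 0.642% fell past both at day 25, and 0.925% and 1.28% at day 30. With shares this low, a count of 0 in a short list says little. By adjusted p alone 3 of the 14 were higher and 1 lower at day 25, against 5.6% and 9.34% of all tested genes. At day 30, 2 of the 14 were higher and 2 lower, against 8.33% and 16.4%. The most abundant were Hnf4a, with log2 fold changes of 0.24 and 0.08 (limma adjusted p = 0.256 and 0.704), and Nr1i3, which encodes CAR, with 0.18 and 0.37 (adjusted p = 0.645 and 0.24). The list medians were -0.03 and -0.11. Of 8 CAR and PXR targets outside Cyp2c, 0 passed both thresholds at either day in limma, against the same low shares. By adjusted p alone 1 of the 8 was higher and 0 lower at day 25, against 5.6% and 9.34% of all tested genes. At day 30, 1 of the 8 was higher and 2 lower, against 8.33% and 16.4%. Cyp3a11, the main drug-metabolizing P450 of its family in mouse liver, had -0.45 and -0.67 (adjusted p = 0.123 and 0.0214), and Gstm1, a glutathione transferase, -0.02 and -0.08 (adjusted p = 0.966 and 0.773). The list medians were positive, at 0.23 and 0.21. The target higher by adjusted p alone, Ugt1a1, which conjugates bilirubin, had 0.42 and 0.51 (limma adjusted p = 0.0368 and 0.00998) and is named after its values were seen.

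Epoxides of arachidonic acid, the products of several Cyp2c members, are also made by Cyp2j enzymes and removed by epoxide hydrolases. Of 5 tested genes of this kind, 0 passed both thresholds in limma. Of all tested genes, 0.84% rose and 0.642% fell past both at day 25, and 0.925% and 1.28% at day 30. By adjusted p alone 2 of the 5 were lower at day 25 and 3 at day 30, against 9.34% and 16.4% of all tested genes. Ephx2, the soluble hydrolase, was at 447 to 567 FPKM in Con and 303 to 374 FPKM in CR mice at day 25. It was at 408 to 499 against 254 to 290 FPKM at day 30, where every CR mouse was below the Con range, as in 24.3% of tested genes. Its log2 fold changes were -0.61 and -0.68 (limma adjusted p = 0.0132 and 0.00464), under the minimum fold. Ephx1, the microsomal hydrolase, had -0.50 and -0.89 (adjusted p = 0.11 and 0.0066).

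Cyp2c40 and Cyp2c69 are known as female-predominant genes of mouse liver, so they were set beside other sex-biased genes. Of 7 tested female-biased genes on a list of 13, 3 rose past both thresholds at day 25 and 6 at day 30, with 0 falls, against 0.84% and 0.925% of all tested genes. Cyp2b9, Cyp2b13, Cyp2a4 and A1bg, 4 of the 7, reached 1 FPKM in CR libraries alone and so passed the filter through the group where they were high, which means that the counts give no support of their own. Cux2 was at 0.133 to 2.13 FPKM in Con mice at day 25 and at most 0.145 FPKM at day 30. It too needed CR libraries to pass the filter. Cyp3a16 reached 1 FPKM in Con libraries alone. The remaining gene, Cyp17a1, a steroid hydroxylase, had 1.77 and 1.88 (limma adjusted p = 0.0413 and 0.0218). The P450 gene Cyp2b9 had log2 fold changes of 5.09 and 7.01 (limma adjusted p = 9.17e-06 and 3.99e-07), and Cyp2a4, of another P450 family branch, 1.21 and 2.51 (adjusted p = 0.0112 and 8.18e-05). Cux2, a homeobox repressor, had 0.88 and 1.98 (limma adjusted p = 0.336 and 0.0261). Cyp2b13 had 0.03 at day 25, where it was at or near 0 in all mice, and 2.88 at day 30 (limma adjusted p = 0.986 and 0.019). Of 12 male-biased genes, 6 fell at day 25 and 12 at day 30, against 0.642% and 1.28% of all tested genes. Their medians were -1.49 and -3.46, and 1 of the 12, Ugt2b38, passed the filter through Con libraries alone. Both lists were written with earlier results of these data known, so nothing is read from the counts of either.

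Among the male-biased genes, Selenbp2 had -2.40 and -6.13 (limma adjusted p = 0.111 and 0.000974), Mup7 -2.51 and -5.28, Mup20 -2.76 and -4.40 and Elovl3 -1.57 and -3.94. Reads of the Cyp2b, Cyp2a4 and Mup genes may be shared with near copies. Whereas the estimates for Cyp2b9, Mup7 and Elovl3 were further from 0 at day 30 than at day 25, those for Cyp2c40 and Cyp2c69 were closer to 0. The interaction passed for neither list's genes (0 of 7 and 0 of 12) nor for Cyp2c40 and Cyp2c69, so this ordering is not a tested difference. Of 8 genes of growth hormone signalling, 0 passed both thresholds at either day in limma. Of all tested genes, 0.84% rose and 0.642% fell past both at day 25, and 0.925% and 1.28% at day 30. By adjusted p alone 1 of the 8 was lower at day 30, against 16.4% of all tested genes. The most abundant, Ghr and Igf1, had adjusted p between 0.101 and 0.89 at the 2 days.

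**Figure D5:**
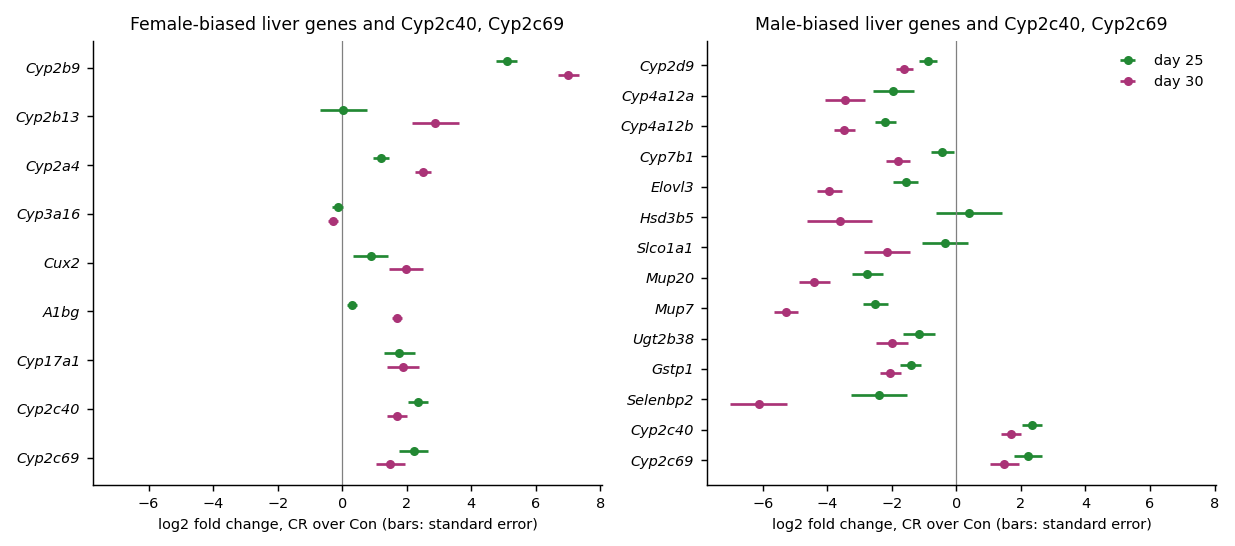
Log2 fold change of CR over Con (bars, standard error) for tested female-biased genes (left) and male-biased genes (right) at day 25 (green) and day 30 (purple), each with Cyp2c40 and Cyp2c69 at the bottom. Most female-biased genes lie right of 0 and most male-biased genes left of it, and the 2 Cyp2c genes lie at 1.49 to 2.34.

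Cyp2c70 was set beside other genes of bile acid synthesis and conjugation. Of 6 genes, 0 passed both thresholds at day 25 in limma, where 0.84% of all tested genes rose and 0.642% fell. By adjusted p alone 1 of the 6 was lower, against 9.34%. At day 30, 2 fell past both thresholds, against 1.28%, and 3 were lower by adjusted p alone, against 16.4%. Cyp8b1, the sterol 12α-hydroxylase that directs synthesis to cholic acid, had log2 fold changes of -0.84 and -3.01 (limma adjusted p = 0.19 and 0.000447), and was at 160 to 361 FPKM in Con and 17.4 to 47.3 FPKM in CR mice at day 30. Cyp7b1, an oxysterol hydroxylase that also stands among the male-biased genes, had -0.43 and -1.81 (limma adjusted p = 0.511 and 0.00654). The estimates for Cyp2c70 were positive at both days, at 0.75 and 0.40, and the list medians were -0.44 and -0.71.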

How the data were processed

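Livers of 12 mice in 4 groups of 3 were analysed. The authors read 100 bp pairs with CASAVA 1.8.2, checked them with FastQC and mapped them to mm10 with BWA. They deposited FPKM of exon reads for 1 RefSeq transcript per gene, which the file header credits to HOMER, with no further scaling between libraries. Near-identical genes can then exchange reads. Deposited values are not counts, so the DESeq2 test named in the methods was not run. FPKM steps gave whole reads (100% of 1500 low values per library within 0.1 of a whole read) and the depth, which limits low genes. The share of reads on exons was 78.1 to 84.3%.

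A limma model (version 3.58.1, R 4.3.3) of the 4 groups with a trend and empirical Bayes moderation was fitted to log2(FPKM + 1) for the 10593 genes with at least 1 FPKM in at least 3 libraries, and all tests were 2-sided. The pseudocount makes fold changes of low genes smaller than ratios. Tables, transcript comparison and figures used Python 3.11.15, pandas, Biopython and matplotlib. The model was tested on simulated data.

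The members and lists were chosen with earlier results of these data known. All members were named, and from each list the genes past both thresholds, at most 4, or else the 2 most abundant. An item of the female-biased list is not reported here and was left out of its counts. Labels do not say whether mice shared a litter. Same-numbered mice of day 25 deviated together (mean correlation over genes 0.26, range 0.106 to 0.368, against -0.131 for different numbers), so the replicate number was used as a block in an alternative. The numbers of CR mice did not pair between days (-0.00167).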

Additional observations from a re-analysis of the deposited data

How the results depend on the processing

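The number of genes called by both thresholds was 157 at day 25, 234 at day 30, 1 for the interaction, 15 between days in CR and 0 in Con mice. With a pseudocount of 0.1 it was 276, 385 and 2 for the first 3 and 1 for Con days, and with 5 it was 74, 109 and 0, with 7 for CR days and 0 of 10 members (3 before) at day 30, which follows from the smaller folds of low genes. Without a filter the interaction gave 0 and CR days 3. The interaction also gave 0 with the filter at 6 libraries, quantile normalization, voom on recovered reads and an adjusted p under 0.05, where CR days gave 5. Voom gave 302 and 422 at day 25 and day 30, and an adjusted p alone gave 1582, 2619 and, for CR days, 34. TPM gave 1 for Con days. The cause was not tested.

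For Cyp2c50 at day 30 the sign turned under median-ratio scaling (0.0719, adjusted p = 0.747 in limma) and for the Cyp2c29 interaction under TPM (-0.00974). Leaving out each mouse gave 137 to 170 genes at day 25, 202 to 286 at day 30, 0 to 4 for the interaction, 2 to 15 for CR days and 0 to 10 for Con days, and 1 to 3 members at day 30 and 0 to 1 (Cyp2c70) for Con days. It turned signs of values that had passed no threshold. These were the interaction for Cyp2c29 (-0.14 to 0.16), Cyp2c37 (-0.28 to 0.0809) and Cyp2c54 (-0.37 to 0.011), Con days for Cyp2c38 (-0.36 to 0.10), CR days for Cyp2c54 (-0.0028 to 0.18), Cyp2c67 (-0.18 to 0.17) and Cyp2c69 (-0.24 to 0.59), and Cyp2c50 at day 30 (-0.12 to 0.11).

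Cyp2c40 kept both thresholds at day 25 under all 19 alternatives run (log2 fold change 1.15 to 3.57), as did Cyp2c69 (1.05 to 3.60). With the replicate block at day 25 in limma, 164 genes and 2 members were called, and Cyp2c40 had an adjusted p of 0.00263 and Cyp2c69 of 0.0146. In CR days the block called 21 genes and 0 members. It changed no call of a member. Columns of Con mice at day 30 could not be linked to numbered samples, so no paired analysis was possible there. Depth limits Cyp2c40, Cyp2c69 and Cyp2c39, which had as few as 6, 9 and 35 reads in a library.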

Other observations

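Co-variation of the members among mice is given as a description over 12 libraries, after subtracting the mean of each group. Libraries share depth and composition, and near-identical genes share reads. Cyp2c50 and Cyp2c54 had r = 0.881, Cyp2c40 and Cyp2c70 had r = 0.875, and Cyp2c38 and Cyp2c39 had r = 0.8, while Cyp2c40 and Cyp2c69 had r = 0.71. The transcripts of Cyp2c40 and Cyp2c70 share no stretch of read length, in contrast to those of Cyp2c40 and Cyp2c69. Outside the family, the genes most like Cyp2c40 were Tpm4 (r = 0.928), Cp (r = 0.923) and Calu (r = 0.919). Those most like Cyp2c29 were Snhg7 (r = 0.937), Snhg6 (r = 0.911) and Pcgf1 (r = 0.911). These are the highest among all tested genes outside the Cyp2c family, so high values arise from the selection itself.

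Among the receptors, Nr1i2, which encodes PXR, was at 25.4 to 35.5 FPKM in Con and 47.8 to 58 FPKM in CR mice at day 25, and at 24.4 to 29.3 against 45.8 to 54.5 FPKM at day 30. It was singled out after its values were seen. The groups did not overlap at either day, as in 5.8% of tested genes in the upward direction. The log2 fold changes of 0.75 and 0.84 (limma adjusted p = 0.00684 and 0.00206) were under the minimum fold. Cebpb, a leucine zipper factor also singled out in this way, had 0.78 and 0.71 (limma adjusted p = 0.0109 and 0.0104).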
